A study of Mus musculus with 12 samples.

Results

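Notch signalling in mouse glomeruli was followed through 10 genes: the ligands Dll4, Jag1 and Jag2, the receptors Notch1, Notch2, Notch3 and Notch4, and the target genes Hes1, Hey1 and Heyl. The genes were chosen by symbol as core components of the pathway, and all 10 of 10 were listed in the count tables, which shared 13475 genes over the libraries. Each gene also passed the filter on low counts in every comparison.

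The study removed Dach1, a transcriptional regulator, from podocytes, the epithelial cells that wrap the glomerular capillaries, and sequenced RNA of isolated glomeruli from C57BL/6 mice, with 3 mice in each of 4 groups. The first group was podocyte-specific Dach1 knockout mice injected with streptozotocin (STZ), a toxin of insulin-producing cells that makes mice diabetic, at 50 µg/g per day on 5 days, with RNA taken 10 days later. The second was control mice with the same STZ injections. The third was knockout mice at baseline and the fourth control mice at baseline, both 10 weeks old and given no STZ according to the labels. The promoter that restricts the knockout to podocytes, the alleles of the control mice and the age of the STZ mice are not stated in the labels. Titles of the STZ controls carry a prefix that the labels do not spell out, so whether both sets of controls had the same genotype is not known.

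Notch signalling runs between neighbouring cells. A ligand on one cell binds a receptor on the next, the receptor is cut by ADAM proteases and then by gamma-secretase, and the released part joins RBPJ in the nucleus and switches on Hes and Hey genes, which encode transcriptional repressors. In the kidney, Dll4, Notch1 and Notch4 are best known from endothelial cells, Notch3 from mesangial and vascular smooth muscle cells, and Notch activity in podocytes has been linked to glomerular disease in mice and people. Because whole glomeruli were sequenced, fewer cells of a type and less RNA per cell cannot be told apart in any of the values here.

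Dll4 was the gene among the 10 with a called difference between knockout and control, and Notch1 and Notch4 followed each other most closely over the libraries. The sequence at the start of each of these genes is shown, as 250 bases before RefSeq's start and 10 bases from the start on (GRCm38.p6, 5′ to 3′ in the direction of transcription). The spans are chr2:119325534-119325793 on the plus strand for Dll4, chr2:26503813-26504072 on the minus strand for Notch1 and chr17:34564045-34564304 on the plus strand for Notch4. Capitals mark matches of the N-box, CACNAG on either strand, a sequence that Hes proteins bind.
Dll4: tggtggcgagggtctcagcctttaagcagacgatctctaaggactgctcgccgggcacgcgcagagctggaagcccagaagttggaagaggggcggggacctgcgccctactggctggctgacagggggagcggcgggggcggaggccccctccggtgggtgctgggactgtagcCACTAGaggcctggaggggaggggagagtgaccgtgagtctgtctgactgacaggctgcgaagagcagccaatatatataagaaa
Notch1: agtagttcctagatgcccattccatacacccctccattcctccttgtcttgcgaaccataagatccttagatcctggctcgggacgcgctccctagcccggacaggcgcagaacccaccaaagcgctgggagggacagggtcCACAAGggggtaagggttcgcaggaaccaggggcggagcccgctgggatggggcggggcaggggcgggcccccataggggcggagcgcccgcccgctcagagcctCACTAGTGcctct
Notch4: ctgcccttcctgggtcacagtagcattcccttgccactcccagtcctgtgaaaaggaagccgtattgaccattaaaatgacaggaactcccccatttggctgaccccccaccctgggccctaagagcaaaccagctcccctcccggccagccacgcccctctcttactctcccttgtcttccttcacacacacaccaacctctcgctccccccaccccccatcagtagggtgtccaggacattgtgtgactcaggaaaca

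The search covered RefSeq windows of 300 bases, 250 before to 50 after the start, which were matched for 7 of the 10 genes and not for Hes1, Hey1 and Heyl. CACNAG occurred in 42.5% of 32807 such mouse windows. Dll4 had 1 match, beginning 75 bases before the start. Notch1 had 3, of which the pair at the start overlap each other, and GENCODE's Notch1 begins farther upstream than RefSeq's start. Notch2 had 1 match and Notch3 had 2, while Notch4, Jag1 and Jag2 had 0. TGGGAA, the core that RBPJ binds, was in 25.6% of all windows and GTGGGAA in 6.39%, and neither was in the windows of these 7 genes on either strand.

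The genes lie on several chromosomes of GRCm38 (GENCODE M21). Dll4 spans chr2:119325784-119335962, Notch1 chr2:26457903-26516663 and Jag1 chr2:137081456-137116644. Notch2 spans chr3:98013527-98150361 and Hey1 chr3:8663359-8667256. Notch3 and Notch4 lie at chr17:32120820-32166852 and chr17:34564268-34588503, Jag2 at chr12:112907819-112929776, Hes1 at chr16:30064384-30067796 and Heyl at chr4:123233556-123249875. Exons of Notch1, Notch2, Notch3 and Dll4 overlap exons of other annotated genes. For Dll4 the overlap is 214 bases of Gm14207 on the opposite strand, and for Notch3 it is 488 bases of the antisense gene Gm17276. How strand was handled in counting is not stated in the labels, so reads in those stretches cannot be assigned to one gene or the other.

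Libraries held 6.61e+07 to 7.86e+07 counts in the STZ groups and 2.26e+07 to 2.49e+07 counts in the baseline groups. STZ therefore came with deeper sequencing and a differently filtered table, and the effects of these on any difference between STZ and baseline cannot be told apart. The STZ arm also had fewer female libraries, as given below. Whether age and the genotype of the controls matched between the arms is not known. Dach1 was at 55.8, 65.9 and 67.0 CPM in STZ knockouts, against 145, 175 and 183 CPM in STZ controls, and at 47.2, 56.7 and 59.3 CPM in baseline knockouts, against 162, 106 and 188 CPM in baseline controls, so the knockout libraries lay below all controls in both arms. CPM are counts relative to the library's total, scaled with TMM factors over all 12 libraries. Summed proximal tubule markers, RNA of neighbouring tissue, ranged from 4112 to 14141 CPM in STZ knockouts, 3445 to 15356 CPM in STZ controls, 2932 to 31156 CPM in baseline knockouts and 4237 to 8523 CPM in baseline controls. By their Xist and Ddx3y counts, 1 of the 6 STZ libraries (a knockout) and 4 of the 6 baseline libraries (replicates 1 and 2 of each genotype) were female. All 11 podocyte and all 14 endothelial markers were detected in each group.

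In untreated control glomeruli the endothelial ligand and receptors led the ligands and receptors per length of transcript. Levels between genes are given as CPM per kilobase of exon. Hes1, a target gene, averaged 47.5 ± 18.5 CPM per kb, Notch4 30.3 ± 5.86, Dll4 28.6 ± 1.54 and Notch1 27.8 ± 2.02 (SD, n = 3 mice each). The ranges of these leading genes overlapped each neighbour in the order. A step without overlap separated Notch1 from Notch3 at 15.7 ± 3.64 CPM per kb, which was followed by Hey1 at 12.9 ± 0.998, Jag2 at 11.4 ± 2.22, Jag1 at 8.02 ± 1.88 and Notch2 at 7.92 ± 1.01. Heyl, at 5.90 ± 1.17 CPM per kb, lay below Notch2 without overlap. Its highest value, 6.65, reached just above the lowest value of Jag1, 6.63. Over 13235 genes with a known length, the level of Heyl exceeded 40.1% of genes and that of Hes1 88.9%.

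The place of Dll4 in this order of means differed between groups, although its range overlapped that of Notch1 in each group. Dll4 had rank 4 in STZ knockouts, at 11.7 ± 3.76 CPM per kb, and rank 2 in STZ controls, at 23.1 ± 1.59 CPM per kb. It had rank 4 in baseline knockouts, at 19.9 ± 3.80 CPM per kb, and rank 3 in baseline controls. Hes1 came first and Heyl last in each group.

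**Figure D1:**
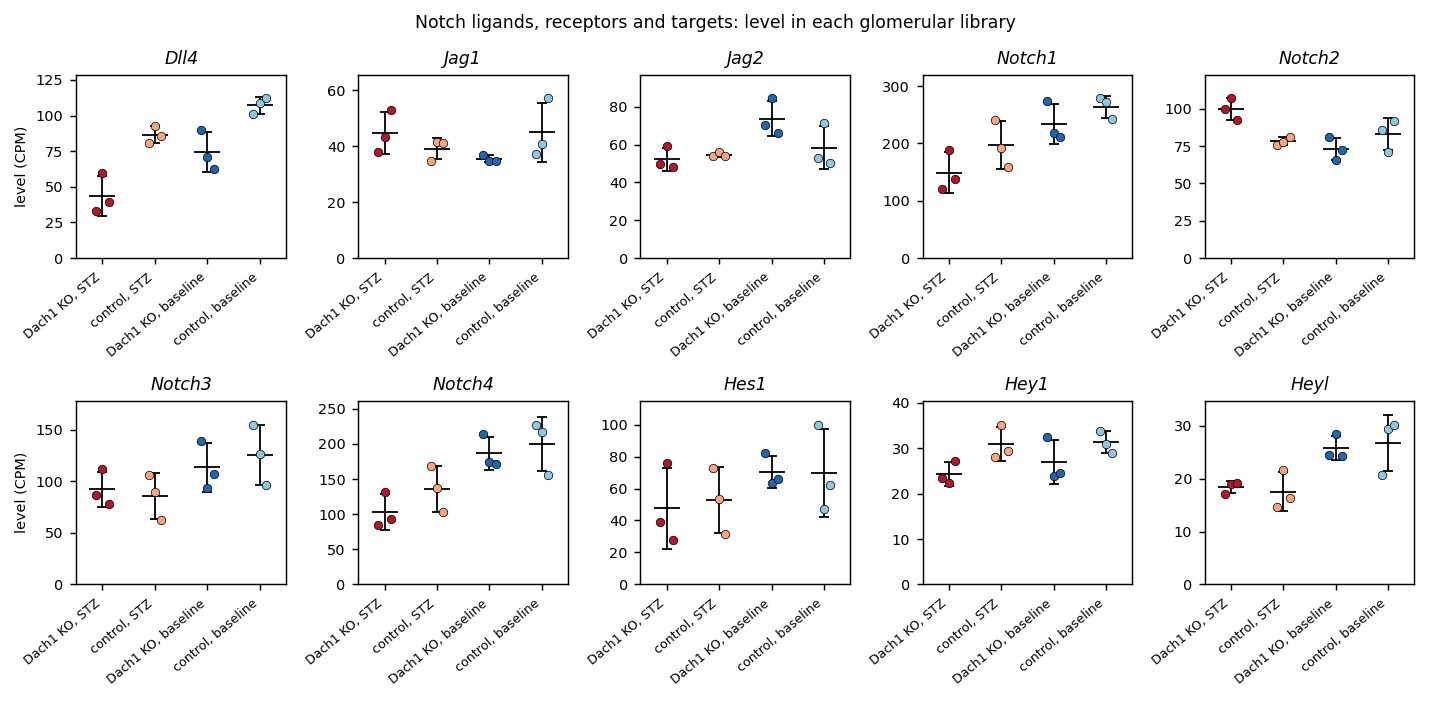
Level of each of the 10 genes in each library, in CPM (vertical axis of each panel, starting at 0), for STZ knockouts, STZ controls, baseline knockouts and baseline controls from left to right. Points are mice, and bars give the mean and SD of 3 mice. The Dll4 points of the knockouts lie below those of the controls within each arm, from 32.7 to 59.7 CPM in STZ knockouts and 80.7 to 92.6 CPM in STZ controls.

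Dll4, the ligand of sprouting and arterial endothelium, was lower in knockout glomeruli in both arms. Its level was 32.7, 59.7 and 39.2 CPM in STZ knockouts, against 80.7, 92.6 and 86.0 CPM in STZ controls. At baseline it was 90.2, 70.6 and 62.5 CPM in knockouts, against 101, 109 and 112 CPM in controls. Every knockout library lay below every control library of its arm, and STZ knockouts also lay below all baseline knockouts. Dll4 had 2400 to 4706 counts per library in STZ knockouts, 5762 to 7005 in STZ controls, 1379 to 2070 in baseline knockouts and 2327 to 2822 in baseline controls.

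Within each arm alone, the difference in Dll4 missed the threshold of an adjusted p under 0.05 in edgeR's quasi-likelihood test over all genes. The log2 fold change of knockout over control was -0.97 after STZ (SE 0.23, 95% interval -1.52 to -0.42, edgeR adjusted p = 0.171) and -0.53 at baseline (SE 0.15, interval -0.89 to -0.17, adjusted p = 0.472). After STZ, 1.07% of 16291 genes were called, and at baseline 0.23% of 13475 genes were called. After STZ, Dll4 was called by DESeq2 (adjusted p = 0.00838) and by edgeR in the fit to all 12 libraries (adjusted p = 0.0359).

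Over both arms together, with arm as a term in the fit, Dll4 was 40.7% lower in knockouts, with a log2 fold change of -0.75 (SE 0.15, interval -1.09 to -0.42, edgeR adjusted p = 0.0210), and 6 of 6 knockouts lay below every control of their arm. Of the 10 genes, Dll4 alone was called by edgeR there, where 2.82% of 13475 genes were called, 1.51% as higher and 1.31% as lower. This fit was added after the values of each arm had been seen. The call was lost in 7 of the 12 fits that left out 1 library, namely STZ control 2 or 3, STZ knockout 3, baseline control 2 or 3, or baseline knockout 2 or 3. Over all 12 such fits the log2 fold change ran from -0.85 to -0.65 and the adjusted p from 0.00862 to 0.0655.

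Jag1 and Jag2, the Jagged ligands, were not called in either arm. Jag1 was at 38.0, 43.1 and 52.9 CPM in STZ knockouts, against 34.8, 41.4 and 41.1 CPM in STZ controls, and these ranges overlapped. At baseline it was at 36.9, 34.9 and 34.8 CPM in knockouts, against 37.2, 40.8 and 57.0 CPM in controls. The baseline knockouts lay just below the controls without overlap, with a log2 fold change of -0.34 (SE 0.17, edgeR adjusted p = 0.802). Jag2 was at 49.5, 59.1 and 48.1 CPM in STZ knockouts, against 53.8, 56.0 and 54.0 CPM in STZ controls. In baseline knockouts it was at 70.6, 84.3 and 66.3 CPM, against 53.1, 71.3 and 50.4 CPM in baseline controls. Jag2 ranges overlapped in both arms, and the log2 fold change was -0.06 after STZ and 0.34 at baseline (edgeR adjusted p = 0.800 at baseline).

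The makeup of the 3 ligands differed accordingly. Dll4 gave 34.6%, 45.3% and 35.7% of the summed ligand level per kb in STZ knockouts, against 56.3%, 57.4% and 56.2% in STZ controls. It gave 54.1%, 45.3% and 46.5% in baseline knockouts, against 61.2%, 57.8% and 59.9% in baseline controls. Knockout and control shares of Dll4 did not overlap in either arm. Jag2 gave 34.5% ± 3.46 in STZ knockouts and 26.3% ± 1.09 in STZ controls, and 35.7% ± 4.34 in baseline knockouts and 23.7% ± 3.99 in baseline controls (SD, n = 3 each), and its ranges did not overlap either. Jag1 gave 27.0% ± 5.17 in STZ knockouts and 17.1% ± 0.861 in STZ controls, also without overlap, but 15.7% ± 1.42 in baseline knockouts and 16.6% ± 3.23 in baseline controls, with overlap. With 3 mice against 3, an exact permutation test of a share cannot go below 0.1, and none was run. Shares of a whole move against each other, so a higher share of Jag2 is not a higher level of Jag2.

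**Figure D2:**
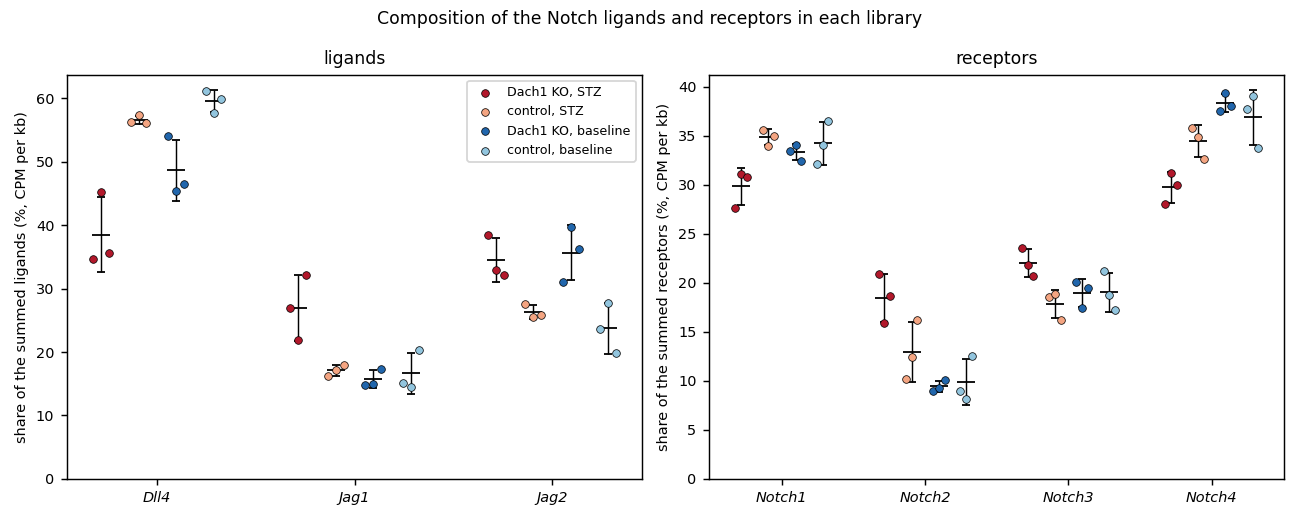
Share of each ligand in the summed level of the 3 ligands (left panel) and of each receptor in the summed level of the 4 receptors (right panel), in percent of CPM per kb, for each library. Points are mice and bars give the mean and SD of 3 mice. Dll4 shares lie lower in knockouts than in controls within each arm, with means of 38.5% in STZ knockouts, 56.6% in STZ controls, 48.7% in baseline knockouts and 59.6% in baseline controls.

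Notch1, the receptor that Dll4 activates in sprouting endothelium, was at 120.0, 188 and 138 CPM in STZ knockouts, against 241, 192 and 159 CPM in STZ controls. At baseline it was at 274, 218 and 211 CPM in knockouts, against 278, 272 and 242 CPM in controls. The ranges overlapped in both arms, and the log2 fold change was -0.40 after STZ (SE 0.23, edgeR adjusted p = 0.741) and -0.17 at baseline (SE 0.13). Notch4, a receptor largely limited to endothelial cells, was at 84.4, 132 and 93.3 CPM in STZ knockouts, against 168, 137 and 103 CPM in STZ controls, and averaged 187 ± 23.4 CPM in baseline knockouts and 200 ± 38.6 CPM in baseline controls (SD, n = 3 each). Its ranges overlapped in both arms as well, with log2 fold changes of -0.40 after STZ (edgeR adjusted p = 0.768) and -0.10 at baseline.

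Notch2, a receptor needed for building the nephron, was higher in every STZ knockout than in every STZ control. It was at 100.1, 107 and 92.5 CPM in STZ knockouts, against 75.9, 77.9 and 81.4 CPM in STZ controls. At baseline its ranges overlapped, at 81.0, 65.9 and 72.4 CPM in knockouts, against 86.0, 71.4 and 92.1 CPM in controls. The log2 fold change was 0.35 after STZ (SE 0.11, edgeR adjusted p = 0.312) and -0.19 at baseline (SE 0.13), so neither passed the test. Over both arms it was 0.08 (interval -0.16 to 0.32).

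Notch3, the receptor of mesangial and smooth muscle cells, averaged 92.1 ± 17.3 CPM in STZ knockouts and 86.1 ± 22.3 CPM in STZ controls, and 113 ± 23.4 CPM in baseline knockouts and 126 ± 29.2 CPM in baseline controls (SD, n = 3 each). Its groups overlapped in both arms. The log2 fold change over both arms was -0.03 with an interval of -0.39 to 0.34. Among the receptors, Notch2 made up 18.5% ± 2.46 of the summed level per kb in STZ knockouts and 12.9% ± 3.06 in STZ controls, and the lowest knockout, at 15.9%, lay just under the highest control, at 16.2%. Notch4 made up 29.7% ± 1.62 in STZ knockouts and 34.4% ± 1.63 in STZ controls, without overlap. At baseline the share of Notch4 was 38.3% ± 0.927 in knockouts and 36.9% ± 2.77 in controls, with overlap. The baseline shares of Notch1 and Notch3 overlapped as well, but their shares after STZ did not. The Notch1 share was lower in STZ knockouts, where the highest was 31.1%, against a lowest STZ control of 33.9%. The Notch3 share was higher in STZ knockouts, where the lowest was 20.7%, against a highest STZ control of 18.8%.

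Of the targets, Hey1, an endothelial target of Notch, was at 23.4, 22.3 and 27.2 CPM in STZ knockouts, against 28.2, 35.2 and 29.3 CPM in STZ controls, and every knockout lay below every control. Its mean was 27.0 ± 4.77 CPM in baseline knockouts and 31.3 ± 2.42 CPM in baseline controls (SD, n = 3 each), and the highest baseline knockout, at 32.5 CPM, lay within the control range of 29.0 to 33.8 CPM. The log2 fold change of Hey1 was -0.34 after STZ (SE 0.14, edgeR adjusted p = 0.534), -0.21 at baseline (SE 0.15) and -0.28 over both arms (SE 0.10, adjusted p = 0.216), none of which passed the test.

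Hes1, the broadly used target, differed widely among mice of the same group. It was at 39.2, 75.9 and 27.5 CPM in STZ knockouts, against 72.8, 53.4 and 31.7 CPM in STZ controls, and at 82.1, 63.2 and 65.8 CPM in baseline knockouts, against 99.9, 46.9 and 62.3 CPM in baseline controls. All its groups overlapped, and the interval of the log2 fold change after STZ, from -1.19 to 0.91, was the widest among the 10 genes in that comparison. Heyl, a target found in smooth muscle and pericytes, averaged 18.4 ± 1.22 CPM in STZ knockouts and 17.5 ± 3.69 CPM in STZ controls, and 25.8 ± 2.35 CPM in baseline knockouts and 26.8 ± 5.31 CPM in baseline controls (SD, n = 3 each). Its knockout and control groups overlapped in both arms, and its log2 fold change over both arms was 0.01, with an interval of -0.25 to 0.27.

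**Figure D3:**
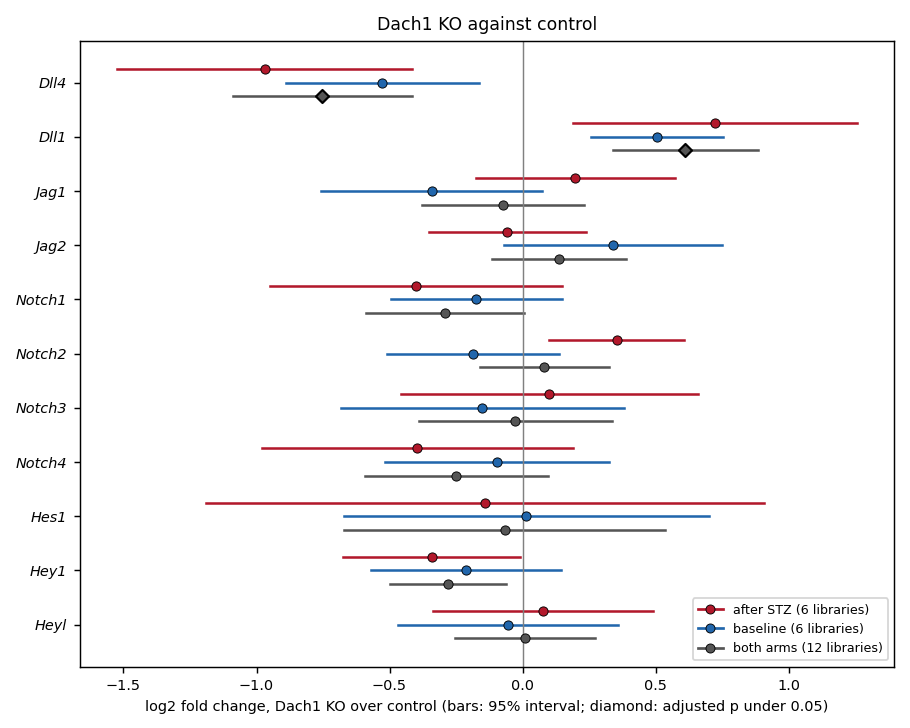
Log2 fold change of knockout over control (horizontal axis) for Dll4, Dll1 and the other 9 genes after STZ, at baseline and over both arms, from edgeR's quasi-likelihood fits. Bars are 95% intervals and diamonds mark an adjusted p under 0.05. The diamonds are Dll4 at -0.75 and Dll1 at 0.61, both over both arms.

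Counted together, 0 of the 10 genes were called by edgeR in knockout against control after STZ, and 0 at baseline, with 3 and 1 of them at an unadjusted p under 0.05. DESeq2 called 1 of them after STZ (Dll4) and 0 at baseline, beside 3.46% and 1.64% of all genes with an adjusted p in that tool. Over all genes, 9.08% reached an unadjusted p under 0.05 after STZ and 6.92% at baseline. The groups did not overlap for 3 of the 10 after STZ (Dll4 and Hey1 lower, Notch2 higher) and 2 at baseline (Dll4 and Jag1 lower). Over all genes, 6.27% were lower and 8.62% higher without overlap after STZ, and 6.84% lower and 4.98% higher at baseline. The median log2 fold change of the 10 genes was -0.10 after STZ and -0.16 at baseline, beside -0.02 and 0.01 over all genes tested.

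The STZ groups were compared with the baseline groups within each genotype. These comparisons share libraries with the knockout comparisons. In knockouts, 8 of the 10 genes had a negative log2 fold change of STZ over baseline and in controls 10 of 10 did, with medians of -0.51 in knockouts and -0.39 in controls, beside -0.02 and 0.02 over all genes. None of the 10 was called by edgeR in either genotype, where 0.178% of 13473 genes were called in knockouts and 0.23% in controls, 0.186% as lower. At an unadjusted p under 0.05 there were 6 of 10 in knockouts and 4 of 10 in controls, beside 14.7% and 12.6% of all genes, and DESeq2 called 3 of 10 in knockouts (Notch4, Jag2 and Heyl) and 0 in controls, beside 5.97% and 3.05% of all genes. With the endothelial marker mean as a covariate, a fit described with the endothelial markers, Hes1, Notch3 and Hey1 turned to 0.17, 0.20 and 0.09 in knockouts, and Hes1 to 0.01 in controls.

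Of the genes whose groups did not overlap in knockouts, Notch4 differed most between STZ and baseline, with a log2 fold change of -0.88 (SE 0.21, edgeR adjusted p = 0.151), and STZ knockouts lay below all baseline knockouts. Dll4 followed at -0.79 (SE 0.27, adjusted p = 0.263), Notch1 at -0.68 (SE 0.22, adjusted p = 0.235), Jag2 at -0.52 (SE 0.14, adjusted p = 0.189) and Heyl at -0.51 (SE 0.12, adjusted p = 0.145). Hes1 had a log2 fold change of -0.59 (SE 0.38), with overlap. Notch2, at 0.42 (SE 0.13, edgeR adjusted p = 0.223), and Jag1, at 0.31 (SE 0.15), lay higher in every STZ knockout than in every baseline knockout. The groups did not overlap for 7 of the 10 genes in knockouts, 5 lower and 2 higher, beside 9.59% of all genes lower and 12.9% higher.

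In controls, the groups did not overlap for Notch1 and Dll4, both lower after STZ, beside 8.75% of all genes lower and 11.6% higher. Notch1 averaged 197 ± 41.2 CPM in STZ controls and 264 ± 19.2 CPM in baseline controls (log2 fold change -0.45, edgeR adjusted p = 0.382), and Dll4 averaged 86.4 ± 5.97 CPM in STZ controls and 107 ± 5.76 CPM in baseline controls (-0.34, adjusted p = 0.294). Heyl had the most negative log2 fold change in controls, -0.64 (SE 0.21, edgeR adjusted p = 0.324), and Hey1 the least, -0.05. With sex as a covariate, Jag2 and Hey1 turned to 0.09 and 0.06 in controls.

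**Figure D4:**
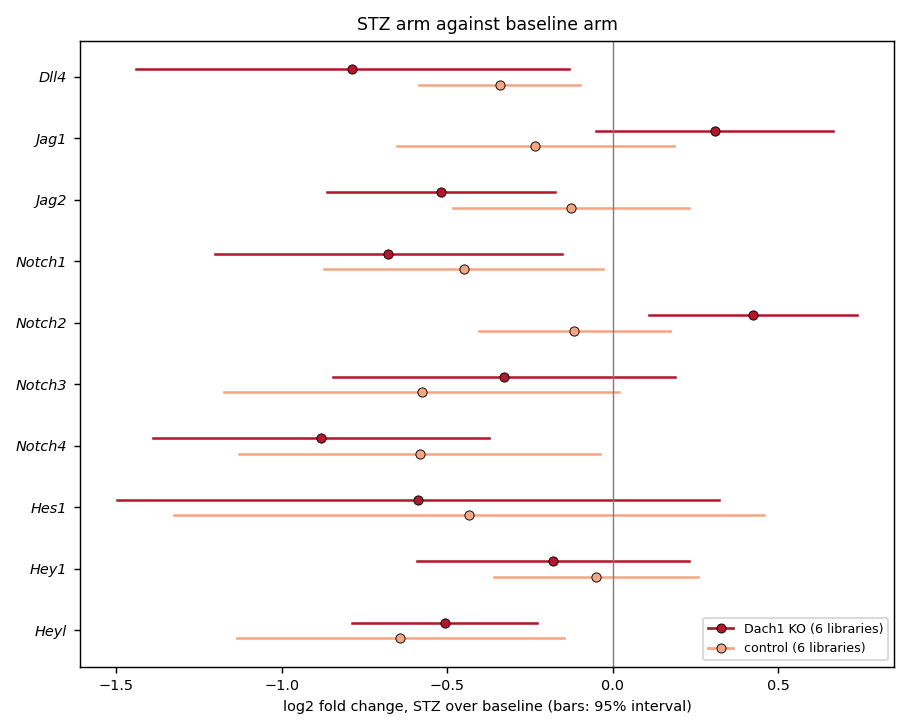
Log2 fold change of STZ over baseline (horizontal axis) for the 10 genes in knockouts and in controls, from edgeR's quasi-likelihood fits. Points are estimates and bars 95% intervals. In controls all 10 points lie below 0, and in knockouts 8 do, with Notch2 at 0.42 and Jag1 at 0.31 above it.

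The interaction of knockout and STZ asks whether the knockout difference was itself different after STZ. None of the 10 genes was called in it by edgeR, where 0.00742% of 13475 genes (1 gene, higher) were called. At an unadjusted p under 0.05 there were 2 of the 10, beside 3.68% of all genes, and DESeq2 called 0 of the 10, beside 0.23% of all genes (31 genes). Notch2 had an interaction of 0.53 on the log2 scale (SE 0.16, edgeR adjusted p = 0.975) and Jag1 of 0.53 (SE 0.24, adjusted p = 0.975). For Dll4 it was -0.45 (SE 0.29, interval -1.09 to 0.18, adjusted p = 0.975), so these data neither show nor bound tightly a difference of the Dll4 effect between arms.

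Endothelial marker levels moved with several of these genes. The summed level of 14 endothelial markers ranged from 9555 to 12617 CPM in STZ knockouts, 9431 to 18497 CPM in STZ controls, 12770 to 21550 CPM in baseline knockouts and 15448 to 18223 CPM in baseline controls. None of the 14 was called by edgeR in the comparisons of knockout and control or of STZ and baseline. DESeq2 called 0 of them for knockout against control in either arm. For STZ over baseline it called 3 in knockouts and 2 in controls, beside 5.97% and 3.05% of all genes. At an unadjusted p under 0.05 there were 2 after STZ and 0 at baseline for the knockout, beside 9.08% and 6.92% of all genes, and 6 in knockouts and 4 in controls for STZ, beside 14.7% and 12.6%. Of the 14, 12 had a negative log2 fold change of knockout over control after STZ (median -0.19) and 9 of 14 at baseline (median -0.02). For STZ over baseline, 14 of 14 were negative in knockouts (median -0.52) and 12 of 14 in controls (median -0.34). All 11 mesangial markers were negative for STZ over baseline in controls and 10 of 11 in knockouts, and their summed level ranged from 2531 to 3679 CPM in STZ knockouts, 2123 to 3065 CPM in STZ controls, 4817 to 5050 CPM in baseline knockouts and 4719 to 5988 CPM in baseline controls. Other marker lists moved with STZ too. Podocyte markers were positive for STZ over baseline in 11 of 11 in knockouts (median 0.40) and 10 of 11 in controls (median 0.25), and immune markers in 10 of 11 in knockouts (median 1.83) and 11 of 11 in controls (median 2.31). Proximal tubule markers were negative in 24 of 24 in knockouts (median -1.08) and 6 of 24 in controls (median 0.20). For knockout over control, proximal tubule markers were positive in 24 of 24 at baseline (median 1.01) and over both arms (median 0.47). After STZ 6 of 24 were positive (median -0.15). With their mean as a covariate, the log2 fold change of Dll4 was -0.44 at baseline, -1.01 after STZ and -0.74 over both arms. The part of these marker lists in the differences of the 10 genes was not tested.

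Dll4 also had a negative log2 fold change of knockout over control in a fit with the mean endothelial marker level as a covariate. Its log2 fold change in that fit was -0.91 after STZ, -0.51 at baseline and -0.71 over both arms (edgeR adjusted p = 0.0179 over both arms). By library, the STZ controls had endothelial sums of 18497, 13817 and 9431 CPM beside 80.7, 92.6 and 86.0 CPM of Dll4. The STZ knockouts had sums of 9555, 12617 and 10463 CPM beside 32.7, 59.7 and 39.2 CPM of Dll4. The part of endothelial level in the Dll4 difference was not tested. As a percentage of the endothelial sum, Dll4 was 0.418, 0.485 and 0.489 in baseline knockouts, against 0.553, 0.636 and 0.725 in baseline controls, with no overlap. In STZ knockouts it was 0.343, 0.473 and 0.375, against 0.436, 0.670 and 0.912 in STZ controls, where the lowest control lay within the knockout range. For STZ over baseline in knockouts, the covariate moved Dll4 to -0.04 where it had been -0.79, Notch1 to -0.10 where it had been -0.68, and Notch4 to -0.34 where it had been -0.88. In knockouts the endothelial sums of the arms did not overlap, at 9555 to 12617 CPM after STZ and 12770 to 21550 CPM at baseline. Arm and endothelial level went together there, so that fit cannot separate them. For STZ over baseline in controls, Dll4 was -0.37 with the covariate and -0.34 without it, Notch1 -0.19 and -0.45, and Notch4 -0.25 and -0.58. The covariate was chosen after the data had been seen.

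The summed level of genes listed as arterial endothelial was lower in knockouts, mainly through Sema3g, and without Sema3g the groups overlapped at baseline. Over 9 genes the sum ranged from 2040 to 3366 CPM in STZ knockouts and 5069 to 6060 CPM in STZ controls, and from 2209 to 2685 CPM in baseline knockouts and 3541 to 4341 CPM in baseline controls. After STZ edgeR called 1 of the 9, Fbln5, which was higher in knockouts, beside 1.07% of all genes. At baseline it called none, beside 0.23% of all genes. Over both arms it called 2, Sema3g and Cxcr4, which were lower, beside 2.82% of all genes. DESeq2 called 3 after STZ (Cxcr4, Fbln5 and Sema3g) and 1 at baseline (Sema3g), beside 3.46% and 1.64% of all genes. At an unadjusted p under 0.05 in edgeR there were 4 of the 9 after STZ and 3 at baseline, beside 9.08% and 6.92%. Sema3g made up most of the sum, at a mean of 2212 CPM in STZ knockouts and 4925 CPM in STZ controls. Its baseline means were lower, 1517 CPM in knockouts and 2831 CPM in controls, whereas most of the 14 endothelial markers were higher at baseline. Which cells its RNA came from was not tested. Without Sema3g the sum of the other 8 ran from 616 to 700 CPM in STZ knockouts and 704 to 882 CPM in STZ controls, and from 812 to 1033 CPM in baseline knockouts and 886 to 1109 CPM in baseline controls, with overlap at baseline. Whether the makeup of the endothelium had a part in the Dll4 difference was not tested.

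**Figure D5:**
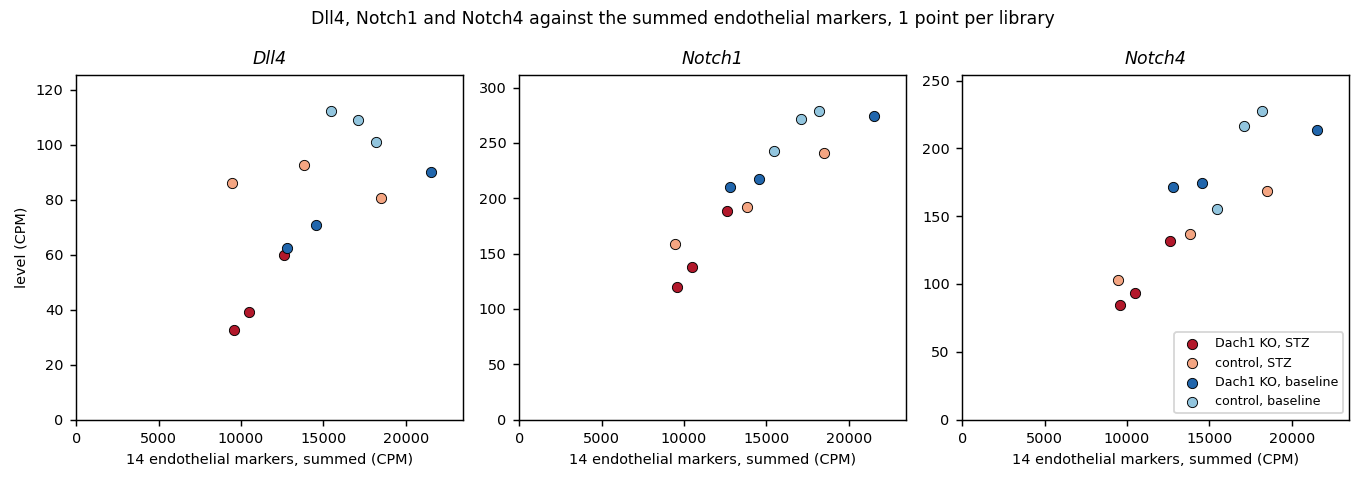
Level of Dll4, Notch1 and Notch4 in CPM (vertical axes) against the summed level of 14 endothelial markers in CPM (horizontal axes), with 1 point for each of 12 libraries. Notch1 and Notch4 follow the marker sum over the libraries. Dll4 lies at 80.7 to 92.6 CPM in STZ controls and at 32.7 to 59.7 CPM in STZ knockouts.

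Among themselves, the 10 genes were compared over the 12 libraries after the mean of each arm had been removed from log2 CPM. Pearson's r was 0.95 between Notch1 and Notch4, 0.79 between Notch1 and Dll4, 0.74 between Notch3 and Hes1, 0.70 between Notch4 and Hes1 and 0.69 between Dll4 and Hey1. These values describe libraries that also share depth and cell makeup. Over 12903 genes, the patterns most like that of Dll4 were those of Bcl2l11 (r = 0.96), Kdm7a (r = 0.95) and Ablim3 (r = 0.94), and the least like was Tex264 (r = -0.97). For Notch1 they were Bach1, Ddi2 and Klf11 (r of 0.96 to 0.97), and for Notch4 Stx12 (r = 0.97), Ddi2 (r = 0.96) and Notch1 itself. The highest r for Hes1 was with Shroom2 (0.92), for Hey1 with Atg13 (0.92), for Heyl with Mannr (0.94), for Notch2 with Pcolce (0.91), for Notch3 with Raph1 (0.94), for Jag1 with Smarcad1 (0.90) and for Jag2 with Cyb561d1 (0.89).

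The rest of the pathway was followed with 87 further genes in 9 lists, from other ligands to the nuclear complex. In the STZ arm 81 and in the other comparisons 75 of them were tested. None was called by edgeR in knockout against control in either arm, in STZ against baseline in knockouts, or in the interaction. At an unadjusted p under 0.05 there were 8 after STZ and 6 at baseline, 10 for STZ over baseline in knockouts and 2 in the interaction, beside 9.08%, 6.92%, 14.7% and 3.68% of all genes. DESeq2 called 0 after STZ, 2 at baseline (Dll1 and Tgm2), 5 for STZ over baseline in knockouts (Dnm2, Efnb2, Gata2, Gata3 and Neurl3) and 0 in the interaction, beside 3.46%, 1.64%, 5.97% and 0.23% of all genes. The 9 genes of the nuclear complex with RBPJ all had negative log2 fold changes at baseline, but small ones, with a median of -0.12. The 10 genes of receptor cleavage had a median of 0.10 after STZ and 0.05 at baseline in knockouts over controls. Within it, 7 genes were positive and 3 negative after STZ, the lowest at -0.69. Ncstn and Aph1a, subunits of gamma-secretase, were higher without overlap after STZ, as were 8.62% of all genes. Their log2 fold changes were 0.31 and 0.36 (edgeR adjusted p = 0.529 for both). Lists for glycosylation of receptors, ligand endocytosis, receptor turnover and nuclear repressors had medians within 0.11 of 0 in both arms. Of the 9 other Notch targets tested over both arms, 8 had a negative log2 fold change of knockout over control, with a median of -0.27. Over all genes 49.3% were negative, with a median of 0.003. None of those 8 was called by edgeR, and the positive gene, Tgm2, was called.

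Over both arms, edgeR called 2 of the 75 other pathway genes, Dll1 and Tgm2, both higher in knockouts, beside 2.82% of all genes, so the count is near that of genes at large. DESeq2 called 3, beside 5.17% of all genes, with Kat2b, a histone acetyltransferase, as the other one, at a log2 fold change of -0.18 in edgeR (adjusted p = 0.0626). Dll1, a ligand of the same Delta family as Dll4, was at 24.7, 42.3 and 28.4 CPM in STZ knockouts, against 19.4, 17.3 and 21.3 CPM in STZ controls. At baseline it was at 32.9, 31.1 and 27.7 CPM in knockouts, against 22.3, 21.7 and 20.6 CPM in controls. Every knockout lay above every control in both arms, the opposite of Dll4. The log2 fold change of Dll1 was 0.72 after STZ (SE 0.22, edgeR adjusted p = 0.331), 0.50 at baseline (SE 0.10, adjusted p = 0.253) and 0.61 over both arms (SE 0.12, adjusted p = 0.0210). Its call over both arms was lost without STZ control 1, STZ control 2 or baseline control 3, with adjusted p of 0.0501 to 0.0605.

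Tgm2, a transglutaminase placed in the list of other targets, was at 182, 187 and 195 CPM in STZ knockouts, against 146, 98.5 and 127 CPM in STZ controls, and at 146, 205 and 144 CPM in baseline knockouts, against 91.0, 101 and 115 CPM in baseline controls. Knockouts lay above controls in both arms. Over both arms the log2 fold change was 0.65 (SE 0.12, edgeR adjusted p = 0.0100), and the call was kept in each of the 12 fits without 1 library. In the same list Nrarp, a feedback inhibitor of Notch, stood at -0.61 on the log2 scale over both arms (SE 0.21, edgeR adjusted p = 0.206), and Efnb2, an arterial target, at -0.37 after STZ (SE 0.15, adjusted p = 0.502), without overlap. Of the list of other Hes and Hey genes, which includes Bhlhe40, 3 of 4 tested were positive at baseline (median 0.18). After STZ, 3 of 4 were negative (median -0.55). At baseline Bhlhe40 had 0.60 (SE 0.27, edgeR adjusted p = 0.776) and Hey2 -0.41 (SE 0.24, adjusted p = 0.802), both with overlap.

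For STZ over baseline in controls, 1 of 75 other pathway genes was called by edgeR, beside 0.23% of all genes, and 29 had a positive log2 fold change. DESeq2 called 3 (Dlk1, Gata3 and Snai1), beside 3.05% of all genes, and 10 had an unadjusted p under 0.05, beside 12.6%. The called gene was Dlk1, a Delta-like protein that lacks the domain by which other ligands activate Notch. It averaged 4.12 ± 0.571 CPM in STZ controls and 10.3 ± 0.654 CPM in baseline controls (SD, n = 3 each), which is -1.36 on the log2 scale (SE 0.16, edgeR adjusted p = 0.0400). The call was lost in each of the 6 fits without 1 library, with adjusted p of 0.104 to 0.173. The genes Hes2, Hes3, Hes5, Hes7, Sox9 and Neurl2 of these lists were in neither arm's tables.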

How the data were processed

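RNA of isolated glomeruli was sequenced in 12 libraries. Magnetic beads perfused through the heart served to isolate the glomeruli, per the labels' protocols. The authors deposited 1 table of estimated counts per gene symbol for each library. Of the values of each library, 10.5% to 11.5% end in 0.5, and all were rounded to whole numbers, with 0.5 going upward. The 18 blank values were taken as 0. BWA and mm10 are named in the submitters' processing notes. The tool and annotation used for counting, and whether strand was used, were not given in the sources at hand.

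Genes were filtered with filterByExpr, scaled with TMM and compared by edgeR's quasi-likelihood test with Benjamini-Hochberg adjustment over all genes (edgeR 4.0.16, limma 3.58.1, R 4.3.3), with DESeq2 1.42.0 as an alternative. Genes were called at an adjusted p under 0.05. Comparisons within an arm or genotype used its 6 libraries, and the interaction used all 12. Standard errors were derived from the F statistic. The interval level was 95%. Mice are the replicates, and no pair of libraries of a group agreed within sampling noise (lowest chi-square per degree of freedom 42.0). Levels per kb used exon lengths of GENCODE M21. The scripts were tested on simulated data.

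The 10 genes, the other pathway lists and the marker lists were chosen with earlier results of these data known. Named genes were the 10 members, Dach1, each other pathway gene called or up to 2 of smallest p per list and comparison, and the 3 most and the 1 least alike in pattern, among genes with a mean of at least 1 CPM (prior count 2 on the log2 scale). Sema3g, Fbln5, Cxcr4 and genes named from DESeq2 calls were named after their values were seen.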

Additional observations from a re-analysis of the deposited data

How the results depend on the processing

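Of 929 results on single genes under an alternative, 856 kept their direction and side of the threshold. The number of genes called moved most with the tool. DESeq2 called 564 genes in knockout against control after STZ, 220 at baseline, 804 for STZ over baseline in knockouts, 410 in controls, 31 in the interaction and 696 over both arms. DESeq2 called 1 of the 10 genes after STZ (Dll4) and 3 for STZ over baseline in knockouts (Notch4, Jag2 and Heyl). Fitting all 12 libraries together called 289 genes after STZ, with 1 of the 10 (Dll4), 79 at baseline, 252 for STZ over baseline in knockouts and 69 in controls. With a covariate for the proximal tubule marker mean 330, 65, 260, 0 and 575 genes were called after STZ, at baseline, for STZ over baseline in knockouts, in the interaction and over both arms, with 1 of the 10 (Notch4) for STZ over baseline in knockouts. With sex as a covariate 61, 10, 9, 6 and 0 were called after STZ, at baseline, for STZ over baseline in knockouts and in controls, and in the interaction. With the endothelial covariate 2, 58 and 0 were called for STZ over baseline in knockouts and in controls and in the interaction. The interaction had 2 with DESeq2 size factors. The cause was not tested for these.

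Reversals concerned log2 fold changes that were not called in the fits reported, among them -0.59 for Hes1 and -0.33 for Notch3 for STZ over baseline in knockouts and -0.43 for Hes1 in controls. With the endothelial covariate Hes1 was 0.21 after STZ, 0.17 and 0.0089 for STZ over baseline in knockouts and in controls, 0.11 in the interaction and 0.12 over both arms. In the same fits Notch3 was 0.20 and Hey1 0.092 for STZ over baseline in knockouts, and Notch3 0.089 and Heyl -0.0038 over both arms. With the tubule covariate Notch3 was 0.038 and Hes1 0.046 over both arms. With sex, Notch3 was -0.073 after STZ, and Jag2 0.089 and Hey1 0.064 for STZ over baseline in controls.

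Leaving out 1 library at a time, the genes called ranged from 40 to 109 after STZ, 4 to 51 at baseline, 1 to 10 for STZ over baseline in knockouts, 4 to 12 in controls, 0 to 2 in the interaction and 268 to 425 over both arms, where 0 to 1 of the 10 genes were called. Fewer samples enter each such fit. Log2 fold changes that changed sign ranged, after STZ, from -0.67 to 0.17 for Hes1, -0.041 to 0.25 for Heyl and -0.10 to 0.28 for Notch3. At baseline they ranged from -0.34 to 0.025 for Notch3, -0.25 to 0.0061 for Notch4, -0.20 to 0.37 for Hes1 and -0.21 to 0.041 for Heyl. For STZ over baseline in controls they ranged from -0.15 to 0.013 for Hey1 and -0.21 to 0.045 for Jag2. In the interaction they ranged from -0.67 to 0.15 for Hes1 and -0.24 to 0.022 for Hey1. Over both arms they ranged from -0.11 to 0.065 for Notch3, -0.28 to 0.079 for Hes1, -0.054 to 0.082 for Heyl and -0.16 to 0.058 for Jag1.

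No paired analysis was possible because the labels give no number that ties a mouse of one group to a mouse of another. With 3 mice in a group, small differences of variable genes such as Hes1 were not detectable here.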
